A study of Mus musculus with 19 samples.

Results

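In the striatum and prefrontal cortex of SCA17 knock-in mice, the mRNA of *Kcnj10*, the gene of the astrocyte potassium channel Kir4.1, stood at 0.290 and 0.233 of its WT level, and the 8 other genes of astrocyte ion and glutamate handling examined with it did not pass the test in any region. The 9 genes were taken by name from the 41128 genes of the count table: *Kcnj10*, *Kcnj16*, *Aqp4*, *Slc1a2*, *Slc1a3*, *Gja1*, *Gjb6*, *Glul* and *Atp1b2*. All 9 had enough counts to be among the 16841 genes tested, with between 115 and 43859 counts per gene and library. *Kcnj10* was picked because of its fall in knock-in striatum and prefrontal cortex, so its values there are given as a description, with no test, while its values in the cerebellum and those of the 8 other genes were open to testing.

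Astrocytes take up the potassium ions and the glutamate that active neurons release. Potassium enters through inwardly rectifying channels that contain Kir4.1, alone or joined to Kir5.1, the product of *Kcnj16*, and through the sodium pump, whose astrocyte form carries the beta subunit *Atp1b2*. Glutamate is taken up by the transporters GLT-1, encoded by *Slc1a2*, and GLAST, encoded by *Slc1a3*, and is turned into glutamine by glutamine synthetase, encoded by *Glul*. Water moves through aquaporin-4, encoded by *Aqp4* and concentrated in endfeet on blood vessels, and the connexins encoded by *Gja1* and *Gjb6* join astrocytes into a network. GLAST is abundant in Bergmann glia, the astrocytes of the cerebellar cortex, and GLT-1 dominates in the forebrain. Kir4.1 is also made by oligodendrocytes.

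The animals were C57BL/6 mice of 3 months. The SCA17 knock-in (KI) mice carry a germline Tbp-105Q allele, an expanded polyglutamine tract in the TATA-binding protein, made by crossing floxed TBP mice with EIIa-Cre mice and then with WT mice, so that every cell type carries the allele. The controls were WT littermates of the same age. The cerebellum gave 3 WT and 4 KI libraries, and the striatum and prefrontal cortex gave 3 libraries of each genotype. Library totals lay between 10639110 and 17431284 counts, with a median of 15082703. Counts per gene do not show the repeat length, so the genotype labels could not be checked. By *Xist* and Y-linked counts, each group held libraries of both sexes, in unequal shares. *Xist* was above the Y-linked counts in 2 of 3 WT libraries of each region. Among KI libraries this held for 2 of 4 in the cerebellum and 1 of 3 each in striatum and prefrontal cortex. Summed levels of cerebellar neuron markers were 5005 to 7410 CPM (counts scaled to a common library total) in the cerebellum and at most 616 CPM elsewhere. Those of striatal neuron markers were 5137 to 11096 CPM in the striatum and at most 1113 CPM elsewhere. Cortical neuron markers did not separate the prefrontal cortex, at 356 to 494 CPM, from the striatum, at 268 to 402 CPM. No defining astrocyte marker was at 0 in any library. Fewer cells of a type and less RNA per cell cannot be told apart in these whole-tissue samples.

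The promoter of *Kcnj10* is shown because the mutated protein binds TATA boxes and works with SP1 at promoters, and that of *Kcnj16*, its channel partner, because 1 of its 4 start sites, the one shown, differs from *Kcnj10* in both motifs. The 250 bases before the RefSeq start site (GRCm38.p6) are written 5′ to 3′, with TATAAA and GGGCGG, on either strand, in capitals.
Kcnj10, chr1:172340960-172341209, plus strand: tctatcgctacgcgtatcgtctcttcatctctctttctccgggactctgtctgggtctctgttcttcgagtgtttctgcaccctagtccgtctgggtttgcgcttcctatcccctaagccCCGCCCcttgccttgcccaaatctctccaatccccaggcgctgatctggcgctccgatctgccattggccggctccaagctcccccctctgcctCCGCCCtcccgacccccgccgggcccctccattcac
Kcnj16, start site 3 of 4, chr11:111019335-111019584, plus strand: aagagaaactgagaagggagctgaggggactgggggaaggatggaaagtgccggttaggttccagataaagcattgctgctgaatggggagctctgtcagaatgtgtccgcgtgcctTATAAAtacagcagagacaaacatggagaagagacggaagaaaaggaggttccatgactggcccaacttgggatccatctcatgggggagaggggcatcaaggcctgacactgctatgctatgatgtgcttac
The *Kcnj10* window held GGGCGG on the opposite strand at 130 and 36 bases before the start and no TATAAA. This *Kcnj16* window held TATAAA at 133 bases before the start and no GGGCGG. Of its other start sites, 1 held GGGCGG at 46 bases before the start and no TATAAA, as *Kcnj10* did, and 2 held neither. Of 32851 mouse promoters in the same set, 12.4% held TATAAA and 32.7% held GGGCGG, on either strand, and the motifs share no bases with each other. Of the 9 genes, 7 had entries, with 10 start sites, and 2 of the 7 held TATAAA and 4 held GGGCGG in a window. These matches describe letters, not binding.

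*Kcnj10* lies on chromosome 1 from 172341210 to 172374085 on the plus strand (GRCm38, ENSMUSG00000044708), and no other annotated gene overlaps it. In WT striatum its level was 101, 106 and 102 CPM in the 3 libraries. In KI striatum it was 35.2, 23.7 and 30.3 CPM. The groups did not overlap, and the highest KI library stood 1.51 log2 units under the lowest WT library. The means were 103 ± 2.76 CPM in WT and 29.7 ± 5.79 CPM in KI (SD, n = 3 each), a log2 difference of -1.79 (SE 0.359) or 0.290-fold.

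In WT prefrontal cortex *Kcnj10* was at 84.9, 163 and 172 CPM. In KI prefrontal cortex it was at 21.9, 37.0 and 39.3 CPM. Again every KI library was under every WT library, with a gap of 1.11 log2 units, although the WT libraries spread over a range that the striatum did not show. The means were 140 ± 47.9 CPM in WT and 32.7 ± 9.47 CPM in KI (SD, n = 3 each), a log2 difference of -2.10 (SE 0.362) or 0.233-fold. The library numbered 1 was the lowest of its group in both genotypes. *Kcnj10* was chosen by these levels in KI and WT striatum and prefrontal cortex, so they carry no p-value. For scale, all KI libraries were under all WT libraries for 8.46% of tested genes in striatum and 4.32% in prefrontal cortex. A gap of at least 1 log2 unit was found for 10 genes in striatum and 10 in prefrontal cortex, 0.0594% in each, and for 2 genes in both, *Kcnj10* and the predicted gene *Gm8210*, named after its values were seen. The place of *Kcnj10* in these counts follows from the values that chose it, so they do not measure how rare its fall is. Same-numbered libraries of the striatum and prefrontal cortex also deviated together, so these regions are not separate observations.

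In the cerebellum, where the test did not reuse the choice of the gene, *Kcnj10* was at 113, 164 and 107 CPM in WT libraries and at 109.7, 124.5, 92.5 and 36.9 CPM in KI libraries. Of the KI libraries, 2 lay within the WT range, 1 just under it, and KI cerebellum 4 far under the others. The means were 128 ± 31.1 CPM (SD, n = 3) and 90.9 ± 38.3 CPM (SD, n = 4). The log2 difference of -0.49 (SE 0.318, 95% interval -1.16 to 0.18) did not pass the test, with an adjusted p of 0.673 in edgeR's quasi-likelihood test, where 0.831% of tested genes were called. Without KI cerebellum 4 the log2 difference was -0.23. That library was 1.32 log2 units under the lowest of the other 6 for *Kcnj10*. It stood at least 1 log2 unit under the other 6 for 38 genes, or 0.226% of those tested, and each other cerebellum library did so for 17 to 65 genes. Its summed astrocyte markers, 7221 CPM, were the lowest of the 7 cerebellum libraries. A large part of that sum was *Aldoc*, which Purkinje cells also make. Its mean was 4061 ± 237 CPM in WT and 2650 ± 415 CPM in KI cerebellum (SD). The difference between regions in the KI effect on *Kcnj10* was not tested, because 2 of the 3 regions chose the gene.

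**Figure D1:**
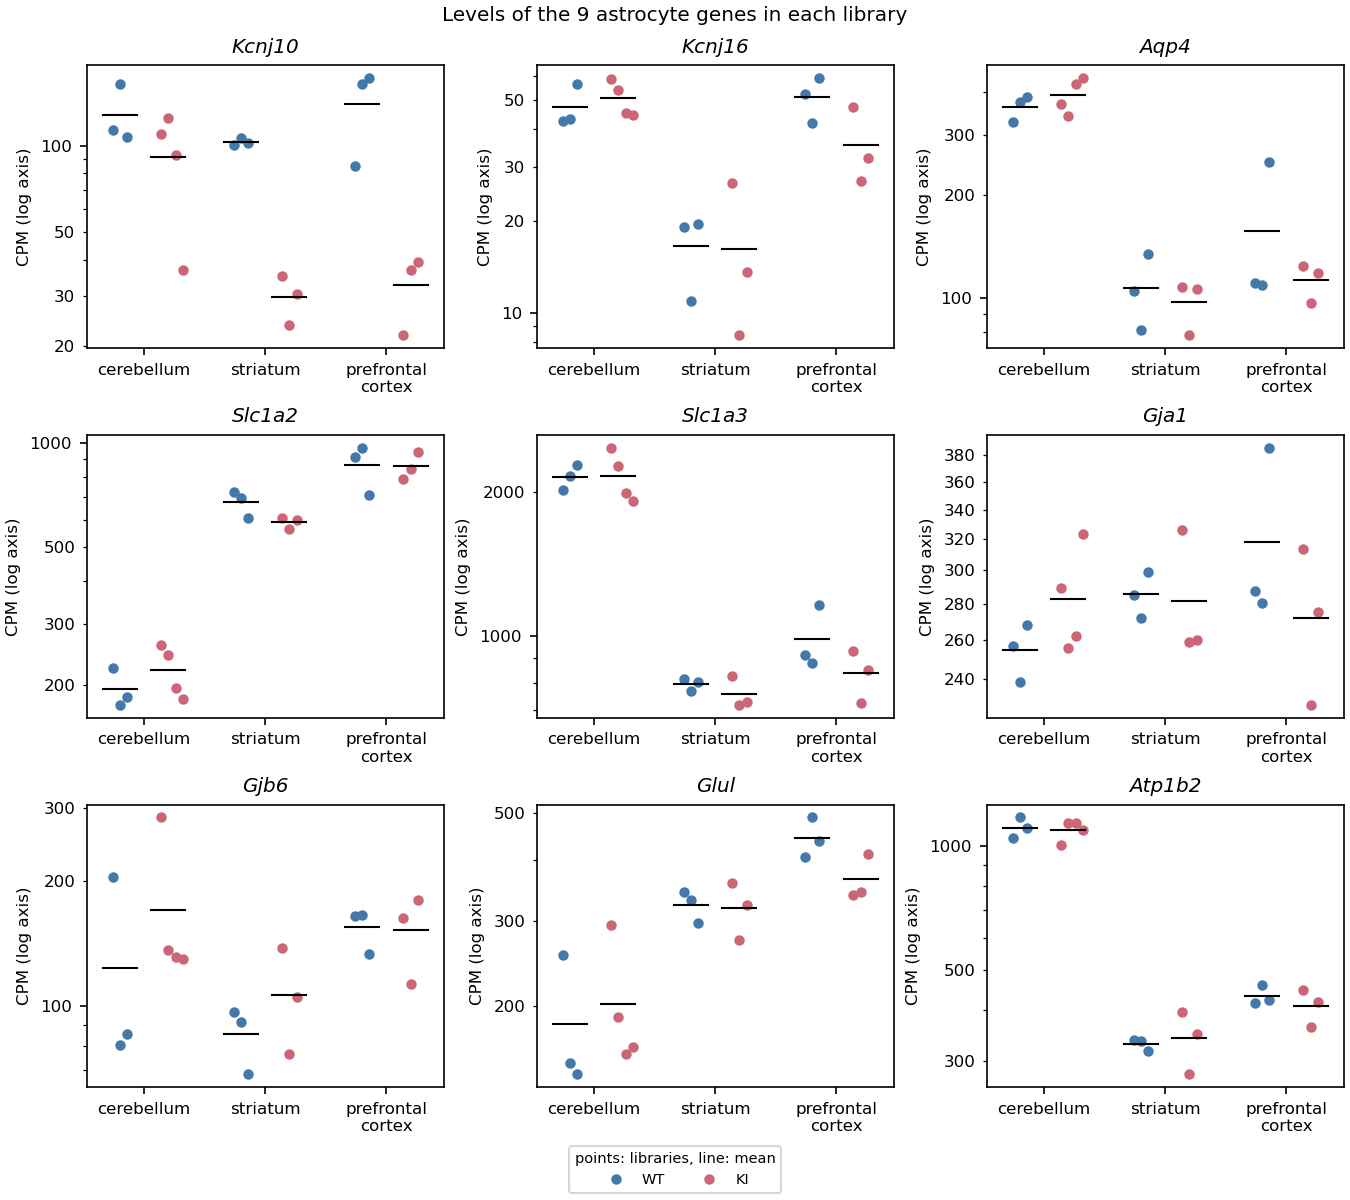
Level of each of the 9 genes in CPM (log axis) in the 19 libraries, by region and genotype, with WT in blue and KI in red. Kcnj10 in KI striatum lies between 23.7 and 35.2 CPM and in KI prefrontal cortex between 21.9 and 39.3 CPM, under every WT library of the same region, while the other genes overlap between genotypes in every region.

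Within each library, *Kcnj10* was also set against the mean log2 level of the 8 other genes, which takes out a change common to all of them. This relative level was -0.94 ± 0.134 log2 units in WT striatum and -2.71 ± 0.041 in KI striatum (SD, n = 3 each). The 3 KI striatum libraries lay within -2.74 to -2.67, a narrower range than that of their *Kcnj10* log2 CPM, 4.57 to 5.14. In WT striatum the reverse held, with relative levels from -1.06 to -0.80 and log2 CPM from 6.65 to 6.73. In the prefrontal cortex it was -1.14 ± 0.508 in WT and -2.99 ± 0.580 in KI (SD, n = 3 each), with KI library 1 lowest at -3.65 and WT library 1 at -1.72. The cerebellum gave -1.17 ± 0.433 in WT (SD, n = 3) and -1.91 ± 0.734 in KI (SD, n = 4). Of the KI cerebellum libraries, 3 lay between -1.75 and -1.30 and number 4 at -2.98, inside the range of the KI forebrain libraries. The mean of the 8 other genes was 7.63 ± 0.096 log2 CPM in WT striatum and 7.60 ± 0.281 in KI striatum, and 8.20 ± 0.111 and 7.98 ± 0.183 in WT and KI prefrontal cortex. In both regions this mean differed far less between genotypes than *Kcnj10* did. *Kcnj10* was chosen by its fall there, so this contrast is a description and carries no test.

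**Figure D2:**
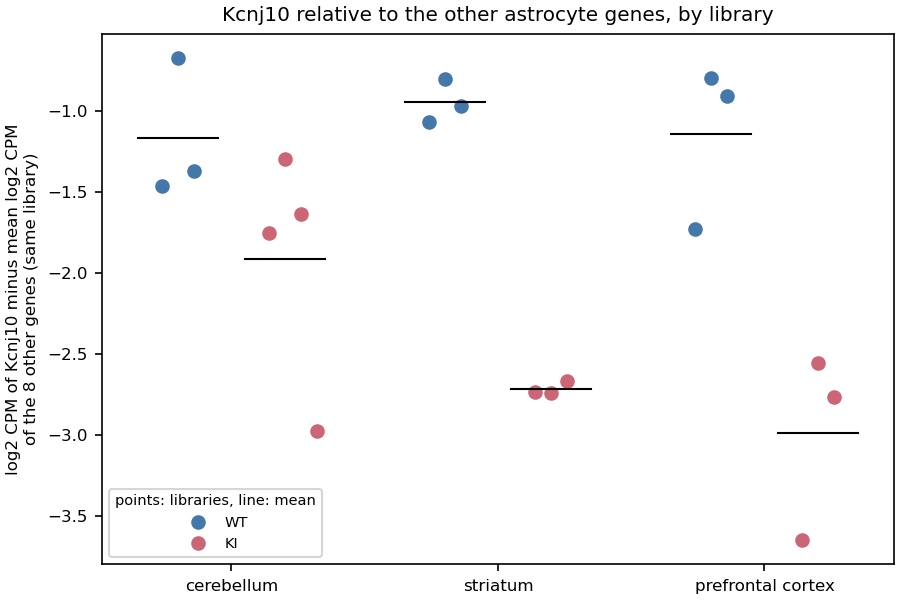
Log2 CPM of Kcnj10 minus the mean log2 CPM of the 8 other genes in the same library (vertical axis) for the 19 libraries by region and genotype, with the group mean as a line. In the striatum the KI libraries sit between -2.74 and -2.67 and the WT libraries between -1.06 and -0.80, and in the cerebellum 1 KI library, at -2.98, stands apart.

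None of the 8 other genes was called in any KI comparison by edgeR, and none had an unadjusted p under 0.05 or was called by DESeq2. An unadjusted p under 0.05 was found for 10.1% of all tested genes in cerebellum, for 8.12% in striatum and for 5.93% in prefrontal cortex. The share called after adjustment was 0.582% for the striatum and 0.107% for the prefrontal cortex, so a count of 0 of 8 is close to what those shares give. The intervals of the single genes say more. No gene of the 8 had KI and WT libraries that failed to overlap in any region, against 12.3% of tested genes in cerebellum, 14.1% in striatum and 8.69% in prefrontal cortex. Taken over cerebellum, striatum and prefrontal cortex in that order, the 8 genes had median log2 differences of 0.13, -0.03 and -0.23, and all tested genes had medians of 0.01, -0.01 and 0.00. All 8 differences were negative in the prefrontal cortex, from -0.52 to -0.01.

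**Figure D3:**
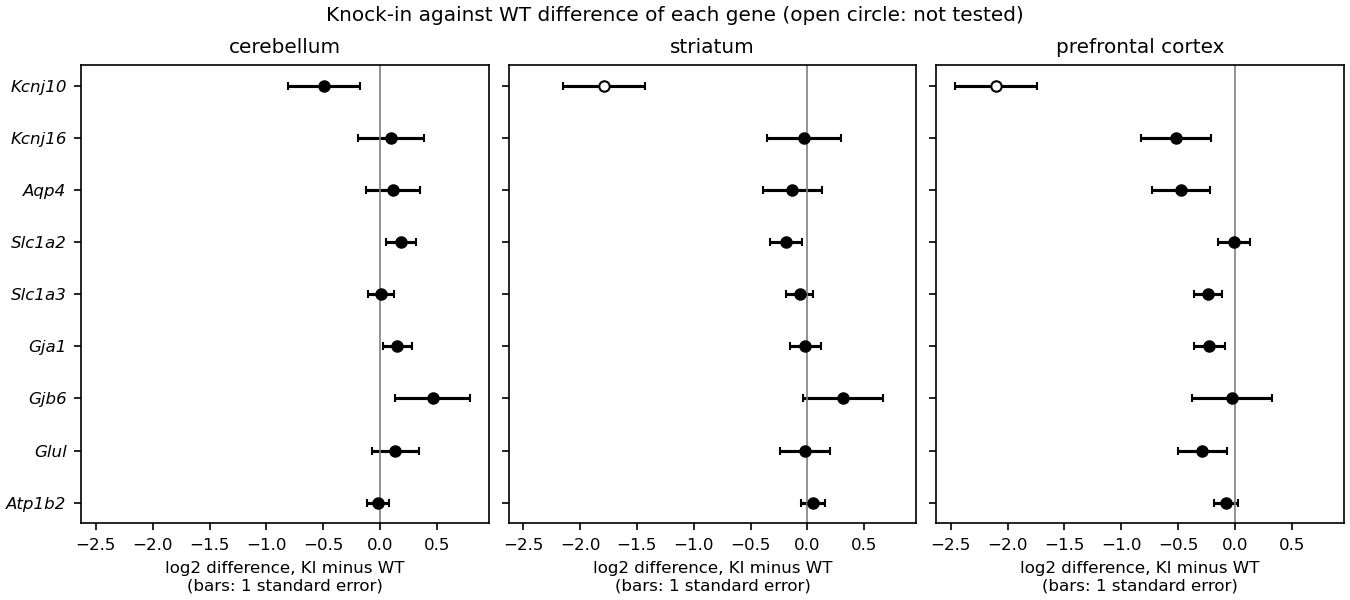
Log2 difference, KI minus WT, of each of the 9 genes in the 3 regions, with bars of 1 standard error and open circles where no test was made. Kcnj10 stands at -1.79 in striatum and -2.10 in prefrontal cortex, and the 8 other genes lie between -0.52 and 0.47 in all regions.

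*Kcnj16* encodes the channel subunit that joins Kir4.1. In the striatum it was low and scattered, at 19.2, 10.9 and 19.5 CPM in WT and 26.6, 8.43 and 13.5 CPM in KI. Its log2 difference there was -0.03 (95% interval -0.71 to 0.65), so that a change of the size seen for *Kcnj10* lay outside the interval. Its prefrontal cortex levels were 52.1, 41.9 and 59.0 CPM in WT and 47.3, 27.1 and 32.2 CPM in KI, with 2 KI libraries under all WT libraries and 1 among them. That difference was -0.52 (95% interval -1.17 to 0.14) and did not pass the test, at an adjusted p of 0.898. In the cerebellum the difference was 0.10 (95% interval -0.51 to 0.71).

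*Aqp4*, the water channel of the endfeet, was at 105, 80.9 and 135 CPM in WT striatum and 108, 78.1 and 106 CPM in KI striatum, a log2 difference of -0.13 (95% interval -0.68 to 0.41). Among prefrontal cortex libraries WT 3 stood at 251 CPM, beside 111 and 109.6 CPM in the other WT libraries and 124.5, 96.9 and 119 CPM in the KI libraries. The difference there, -0.47 (95% interval -1.01 to 0.07, adjusted p = 0.893 in edgeR), rested on that library and was 0.04 without it. In the cerebellum *Aqp4* ranged from 327 to 387 CPM in WT and from 340 to 440.1 CPM in KI, a difference of 0.12 (95% interval -0.38 to 0.62).

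*Atp1b2*, the beta subunit of the sodium pump, was the steadiest of the 9 between genotypes. It was at 1049, 1177 and 1111 CPM in WT cerebellum and at 1010, 1143, 1143 and 1095 CPM in KI cerebellum, a log2 difference of -0.02 (95% interval -0.23 to 0.19). The differences were 0.05 (95% interval -0.18 to 0.27) in the striatum and -0.08 (95% interval -0.31 to 0.15) in the prefrontal cortex. In each region the interval left room for changes of at most 0.31 log2 units.

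The glutamate transporter genes did not pass the test either. *Slc1a3* was at 2013, 2151 and 2269 CPM in WT cerebellum and 2469, 2262, 1987 and 1913 CPM in KI cerebellum, a log2 difference of 0.01 (95% interval -0.23 to 0.25). Prefrontal cortex levels were 913, 880.0 and 1163 CPM in WT and 931.5, 724 and 851 CPM in KI. This difference of -0.24 (95% interval -0.49 to 0.02) had the smallest unadjusted p of the 8 genes in the KI comparisons and an adjusted p of 0.876 in edgeR, and without WT library 3 it was -0.10. In the striatum it was -0.07 (95% interval -0.33 to 0.19).

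*Slc1a2* was at 724, 695 and 606 CPM in WT striatum and 610.0, 565 and 598 CPM in KI striatum, with 1 WT library within the KI range. Its log2 difference was -0.19 (95% interval -0.49 to 0.11) there, -0.01 (95% interval -0.31 to 0.29) in the prefrontal cortex and 0.18 (95% interval -0.10 to 0.46) in the cerebellum. *Glul*, which acts on the glutamate taken up, was at 406, 490.2 and 437 CPM in WT prefrontal cortex and 339, 343 and 412.5 CPM in KI prefrontal cortex. Only the highest KI library, at 412.5 CPM, reached into the WT range. The difference of -0.29 (95% interval -0.75 to 0.17) did not pass the test, at an adjusted p of 0.928. *Glul* differed by -0.02 (95% interval -0.48 to 0.44) in the striatum and by 0.13 (95% interval -0.30 to 0.57) in the cerebellum.

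*Gja1*, which encodes connexin 43, was at 285, 272 and 299 CPM in WT striatum and 326, 259 and 260 CPM in KI striatum, a log2 difference of -0.02 (95% interval -0.31 to 0.27). Its difference was -0.23 (95% interval -0.51 to 0.06) in the prefrontal cortex and 0.15 (95% interval -0.12 to 0.42) in the cerebellum. *Gjb6*, which encodes connexin 30, varied most of the 9 among WT and among KI libraries of the cerebellum, with coefficients of variation of 56.9% and 44.6%. There it was at 205, 80.5 and 85.4 CPM in WT and 285, 137, 131 and 129.9 CPM in KI. The library numbered 1 was the highest of each genotype by far, and without those libraries the KI levels lay above the WT levels. The log2 difference was 0.47 (95% interval -0.23 to 1.16, adjusted p = 0.708), 0.10 without KI cerebellum 1 and 1.04 without WT cerebellum 1. In the striatum it was 0.32 (95% interval -0.43 to 1.06) and in the prefrontal cortex -0.02 (95% interval -0.76 to 0.71).

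The KI effects on the 8 genes were also compared between regions. None of the 8 was called in any of the 3 comparisons by edgeR, and none had an unadjusted p under 0.05. Of all tested genes, 0.0119% were called between cerebellum and striatum, 0.0178% between cerebellum and prefrontal cortex, and 0% between striatum and prefrontal cortex. The shares with an unadjusted p under 0.05 were 6.69%, 6.12% and 4.41%, the last being 743 genes. With so few calls among all genes, a count of 0 of 8 is at the background.

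Most of the 8 other genes differed more between regions than between genotypes. In WT mice, 6 of the 8 genes other than *Kcnj10* differed between cerebellum and striatum, where 56.5% of all tested genes did. *Kcnj16*, *Aqp4*, *Slc1a3* and *Atp1b2* were higher in the cerebellum, with log2 differences of 1.52, 1.76, 1.43 and 1.75. *Slc1a2* and *Glul* were lower there, at -1.79 and -0.82. Between cerebellum and prefrontal cortex 5 of 8 differed, where 52% of all tested genes did: *Aqp4* (1.21), *Slc1a3* (1.12) and *Atp1b2* (1.36) were higher in the cerebellum and *Slc1a2* (-2.15) and *Glul* (-1.28) were lower, on the log2 scale. The gene of GLAST was thus higher in the cerebellum, and that of GLT-1 higher in both forebrain regions.

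Between striatum and prefrontal cortex 2 of 8 differed, where 30.5% of all tested genes did. *Kcnj16* was lower in the striatum by a log2 difference of -1.62 (SE 0.322, adjusted p = 0.000993 in edgeR), and *Atp1b2* by -0.39 (SE 0.107, adjusted p = 0.0113 in edgeR). Same-numbered striatum and prefrontal cortex libraries of a genotype deviated together, and with that number as a block over both regions 3 of 8 differed, where 31.6% of all tested genes did, *Aqp4* being the one added, at -0.47 (SE 0.135, adjusted p = 0.0168 in edgeR). With the block over all 3 regions the count was 5 of 8, and without WT prefrontal cortex 2 it was 4 of 8. In the fit without a block *Gja1* and *Gjb6* did not pass the test in any of the 3 comparisons of regions. *Kcnj10*, given without a test, was at 128 ± 31.1, 103 ± 2.76 and 140 ± 47.9 CPM in WT cerebellum, striatum and prefrontal cortex (SD, n = 3 each), and the striatum libraries lay under those of the cerebellum and inside the range of the prefrontal cortex. In WT mice the striatum was thus the region where *Kcnj16* was lowest against *Kcnj10*.

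Levels of different genes were compared per kilobase of exon. In WT cerebellum *Atp1b2* and *Slc1a3* led, at 272 ± 15.6 and 251 ± 15.0 CPM per kb (SD, n = 3 each), and their ranges overlapped. *Aqp4*, *Glul* and *Gjb6* followed at 58.1 ± 5.05, 55.3 ± 18.6 and 46.2 ± 26.3 CPM per kb, with neighbours overlapping. *Gja1* and *Kcnj10*, at 24.8 ± 1.47 and 23.6 ± 5.75 CPM per kb, also overlapped, and *Slc1a2* and *Kcnj16*, at 14.8 ± 1.97 and 12.0 ± 2.01 CPM per kb, came last. In WT striatum the order opened with *Glul*, at 97.4 ± 7.49 CPM per kb, and *Slc1a3*, at 93.1 ± 2.91 CPM per kb, whose ranges overlapped. *Kcnj10* held place 7 of 9 in all 3 WT groups. In KI striatum, at 5.50 ± 1.07 CPM per kb, it overlapped only *Kcnj16*, the lowest gene, at 4.12 ± 2.38 CPM per kb. In KI prefrontal cortex it was the lowest of the 9, at 6.05 ± 1.75 CPM per kb, overlapping *Kcnj16* at 9.03 ± 2.66 CPM per kb (SD, n = 3 each). These positions of *Kcnj10* in KI groups follow from the values that chose it.

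The wider set of astrocyte genes gave few calls. The list of 20 astrocyte markers had 1 call, *Aldoc*, a glycolytic aldolase also made by Purkinje cells, which fell in the KI cerebellum by 0.62 on the log2 scale (SE 0.112, adjusted p = 0.00912 in edgeR) with no overlap of groups. *Pcp2*, a Purkinje cell marker, fell there too, with a log2 difference of -1.16 (SE 0.136). Summed cerebellar neuron markers were 6912 to 7410 CPM in WT and 5005 to 6301 CPM in KI cerebellum, and the part of Purkinje cells in the *Aldoc* value was not tested. The other 19 astrocyte markers were not called by edgeR in the cerebellum, where 0.831% of all tested genes were. DESeq2 called *Aldoc* and 1 more, *Cldn10*, a claudin gene, which was higher by 0.39 with an adjusted p of 0.0118 in DESeq2 and 0.0627 in edgeR. The list's median log2 difference in the cerebellum was 0.16, with 17 of 20 positive. An unadjusted p under 0.05 in edgeR was found for 6, of which 1 was lower, against 10.1% of all tested genes. Groups did not overlap for 4, of which 1 was lower, against 12.3%. *Ndrg2*, with *Aldoc* among the 2 astrocyte genes of highest level per kb, differed by 0.27 (95% interval 0.08 to 0.46) and had an adjusted p of 0.230 in edgeR.

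In the striatum none of the 20 astrocyte markers was called by edgeR or DESeq2. An unadjusted p under 0.05 was found for 1, against 8.12% of all tested genes. The median was -0.02 with 9 positive and 11 negative. Their summed level was 4981 to 5672 CPM in WT and 4725 to 5770.1 CPM in KI striatum, so the fall of *Kcnj10* stood beside overlapping marker levels. Of the 20 markers, 19 were negative in the prefrontal cortex, with a median of -0.28. None was called by edgeR or DESeq2, 6 had an unadjusted p under 0.05, all lower, against 5.93% of all tested genes, and 5 did not overlap between groups, against 8.69%. Their summed level was 5628 to 6661 CPM in WT and 4557 to 5552 CPM in KI prefrontal cortex, with no overlap. *Aldoc* made up a large part of it, at 1994 ± 193 CPM in WT and 1538 ± 149 CPM in KI (SD, n = 3 each). Against the median of this list the log2 difference of *Kcnj10* in the prefrontal cortex was -1.83, and those of the other 8 genes lay between -0.24 and 0.27. The part of the lower marker levels in these values was not tested beyond that.

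Oligodendrocytes, which also make Kir4.1, were followed through 12 markers. None was called in any region by edgeR or DESeq2, and none had an unadjusted p under 0.05. Of all tested genes, 10.1%, 8.12% and 5.93% had one in the cerebellum, striatum and prefrontal cortex. Their summed level in the striatum was 14540 to 25540 CPM in WT and 12795 to 28032 CPM in KI, which overlapped. In the prefrontal cortex it was 4903, 13329 and 8146 CPM in WT libraries 1 to 3 and 3842, 6535 and 10290 CPM in KI libraries 1 to 3, with all 12 differences negative and a median of -0.28. The libraries numbered 1, lowest for *Kcnj10* in both genotypes, were also lowest for these markers. Its part in the *Kcnj10* values was not tested. KI cerebellum 4, where *Kcnj10* was low, had a sum of 8796 CPM, inside the range of the other cerebellum libraries.

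Further genes of the same functions were followed in 3 lists. Of all tested genes, 10.1%, 8.12% and 5.93% had an unadjusted p under 0.05 in edgeR in the cerebellum, striatum and prefrontal cortex. After adjustment edgeR called 0.831%, 0.582% and 0.107%, and DESeq2 called 336 of 16841 genes in the cerebellum. Of 13 other genes of astrocyte ion transport, such as *Slc4a4*, a bicarbonate transporter, none was called by edgeR in any region, and 1, 1 and 0 had an unadjusted p under 0.05 in the cerebellum, striatum and prefrontal cortex. DESeq2 called 1 in the cerebellum. Median log2 differences were 0.06, -0.19 and -0.03, and in the striatum 11 of 13 were negative. *Slc4a4* differed by 0.15, -0.37 and -0.36 in the 3 regions, with adjusted p of 0.835, 0.583 and 0.852 in edgeR. Of 17 genes that handle glutamate, glutamine and GABA, such as the glutamine exporter *Slc38a3* and the metabotropic glutamate receptor *Grm3*, none was called by edgeR or DESeq2, and 4, 1 and 4 had an unadjusted p under 0.05. Their medians were 0.16, -0.04 and -0.22, and all 4 of the prefrontal cortex were lower. *Grm3* differed by -0.37 (95% interval -0.69 to -0.06) in the striatum and by -0.38 (95% interval -0.70 to -0.07) in the prefrontal cortex, with all KI libraries under all WT libraries in both and adjusted p of 0.473 and 0.739 in edgeR. *Grm3* was singled out after its values were seen. All KI libraries were under all WT libraries for 8.46% of all tested genes in striatum and 4.32% in prefrontal cortex. Of 14 endfoot anchoring genes and gap junction partners, such as *Mlc1* and *Hepacam*, none was called by edgeR, 1, 1 and 0 had an unadjusted p under 0.05, and DESeq2 called 1 in the cerebellum. Their medians were 0.06, 0.06 and -0.11. In the cerebellum, striatum and prefrontal cortex, groups did not overlap for 1, 3 and 0 of the 13 ion transport genes. The counts were 4, 2 and 5 for the 17 genes of glutamate, glutamine and GABA, and 4, 2 and 0 for the 14 endfoot and gap junction genes. The shares of all tested genes were 12.3%, 14.1% and 8.69%.

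**Figure D4:**
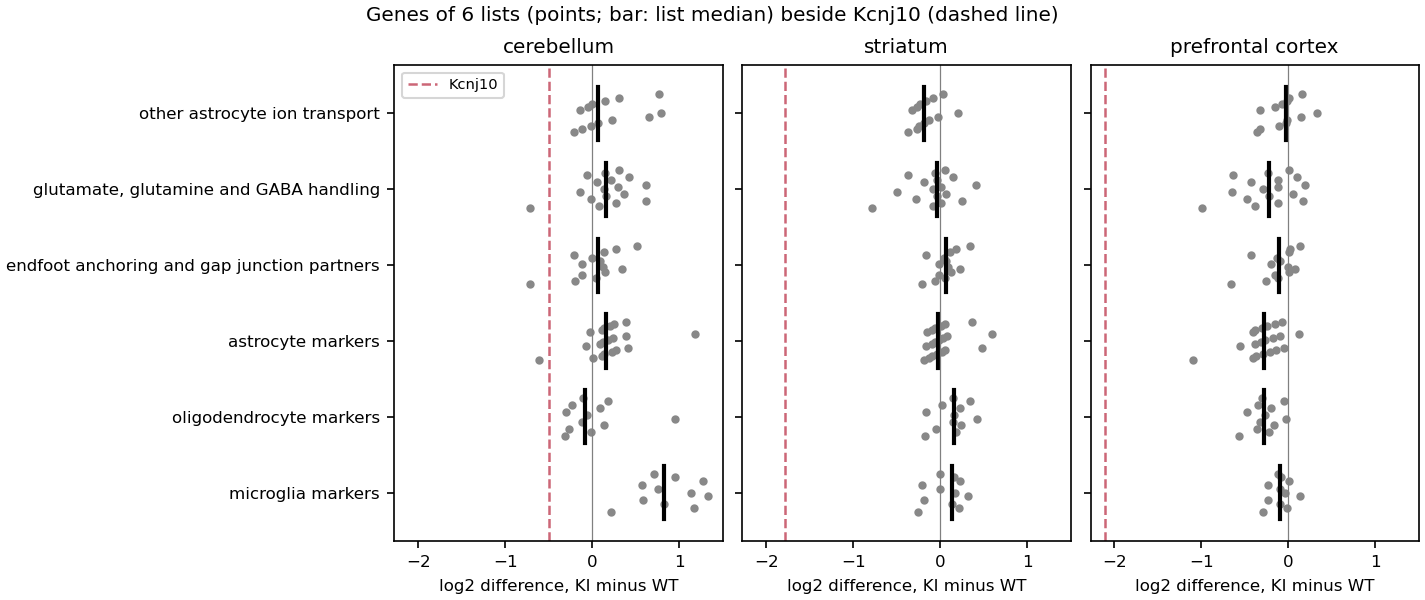
Log2 difference, KI minus WT, of the single genes (points) of 6 lists in the 3 regions, with list medians as bars and Kcnj10 as a dashed line. In the striatum and prefrontal cortex, the regions whose values chose Kcnj10, every point lies to the right of Kcnj10, at -1.79 and -2.10. In the cerebellum the microglia markers have a median of 0.83.

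Other cell types moved in the KI libraries as follows. In the cerebellum edgeR called 8 of 11 microglia markers higher, among them *C1qa*, *Cd68*, *C1qb* and *C1qc*. It called 0.831% of all tested genes there, in either direction. The summed level of the 11 markers was 161 to 167 CPM in WT and 243 to 328 CPM in KI cerebellum. In the striatum and prefrontal cortex none of the 11 was called by edgeR or DESeq2, with 2 and 1 at an unadjusted p under 0.05. For all tested genes the shares at that threshold were 8.12% and 5.93%. Of 10 genes of the interferon response, such as *Usp18*, *Irf7*, *Ifit3* and *Ifi27*, edgeR called 9, 10 and 5 higher in KI cerebellum, striatum and prefrontal cortex. The 1 not called in the cerebellum differed by -0.22 there, and DESeq2 called 8 in the prefrontal cortex. With the regions in the same order, edgeR called 0.831%, 0.582% and 0.107% of all tested genes, in either direction. Of 8 striatal neuron markers, none was called by edgeR in the striatum, 1 was by DESeq2, and 7 did not overlap between groups, all lower in KI, where 8.46% of all tested genes had all KI libraries under all WT libraries. Their median log2 difference was -0.67, with sums of 9539 to 11096 CPM in WT and 5137 to 7394 CPM in KI. The part of these shifts in the *Kcnj10* values was not tested.

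The genes on either side of *Kcnj10* were examined to see whether its fall extended along the chromosome. *Kcnj9*, the neighbour before it and a channel gene of the same family, differed by a log2 of 0.03 in striatum and 0.00 in prefrontal cortex, with adjusted p of 0.993 and 1 in edgeR. Its level was 40.4 ± 9.53 CPM in WT and 41.1 ± 3.31 CPM in KI striatum, and 157 ± 39.1 CPM in WT and 157 ± 26.9 CPM in KI prefrontal cortex (SD, n = 3 each). In the cerebellum *Kcnj9* differed by -0.40 (SE 0.162, adjusted p = 0.384 in edgeR), with all KI libraries under all WT libraries. *Pigm*, the neighbour after it, is an enzyme of GPI anchor synthesis. It differed by -0.20 (SE 0.107), -0.32 (SE 0.118) and -0.05 (SE 0.118) in the cerebellum, striatum and prefrontal cortex. The adjusted p were 0.559, 0.411 and 0.999 in edgeR. All KI libraries of *Pigm* were under all WT libraries in the cerebellum and striatum. Groups did not overlap, in either direction, for 12.3% of all tested genes in cerebellum and 14.1% in striatum.

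Within 5 Mb of the start of *Kcnj10*, 89 other genes were tested. None was called lower by edgeR in any region, and DESeq2 called 0, 1 and 0 lower in the cerebellum, striatum and prefrontal cortex. At an unadjusted p under 0.05 there were 22, 15 and 14 genes, of which 2, 5 and 3 were lower. The shares of all tested genes at that threshold, in either direction, were 10.1%, 8.12% and 5.93%. The counts among the 89 genes were above these shares in each region, and most of the genes counted were higher in KI. Higher calls by edgeR numbered 4, 2 and 0, where 0.831%, 0.582% and 0.107% of all tested genes were called in either direction. They were *Fcgr3*, *Fcer1g*, *Ly9* and *Ifi206* in the cerebellum and *Ifi206* and *Ifi204* in the striatum. The median log2 differences were 0.05, 0.07 and 0.03. The lowest of the 89 stood at -0.79 (*Casq1*), -0.93 (*Slamf8*) and -0.999 (*Fcrlb*). None was as far down as *Kcnj10* in the striatum and prefrontal cortex, the regions whose values chose *Kcnj10*. The neighbours of *Kcnj16* on chromosome 11, *Map2k6* and the potassium channel gene *Kcnj2*, differed by between -0.32 and 0.17 in the 3 regions, with adjusted p of at least 0.886 in edgeR.

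**Figure D5:**
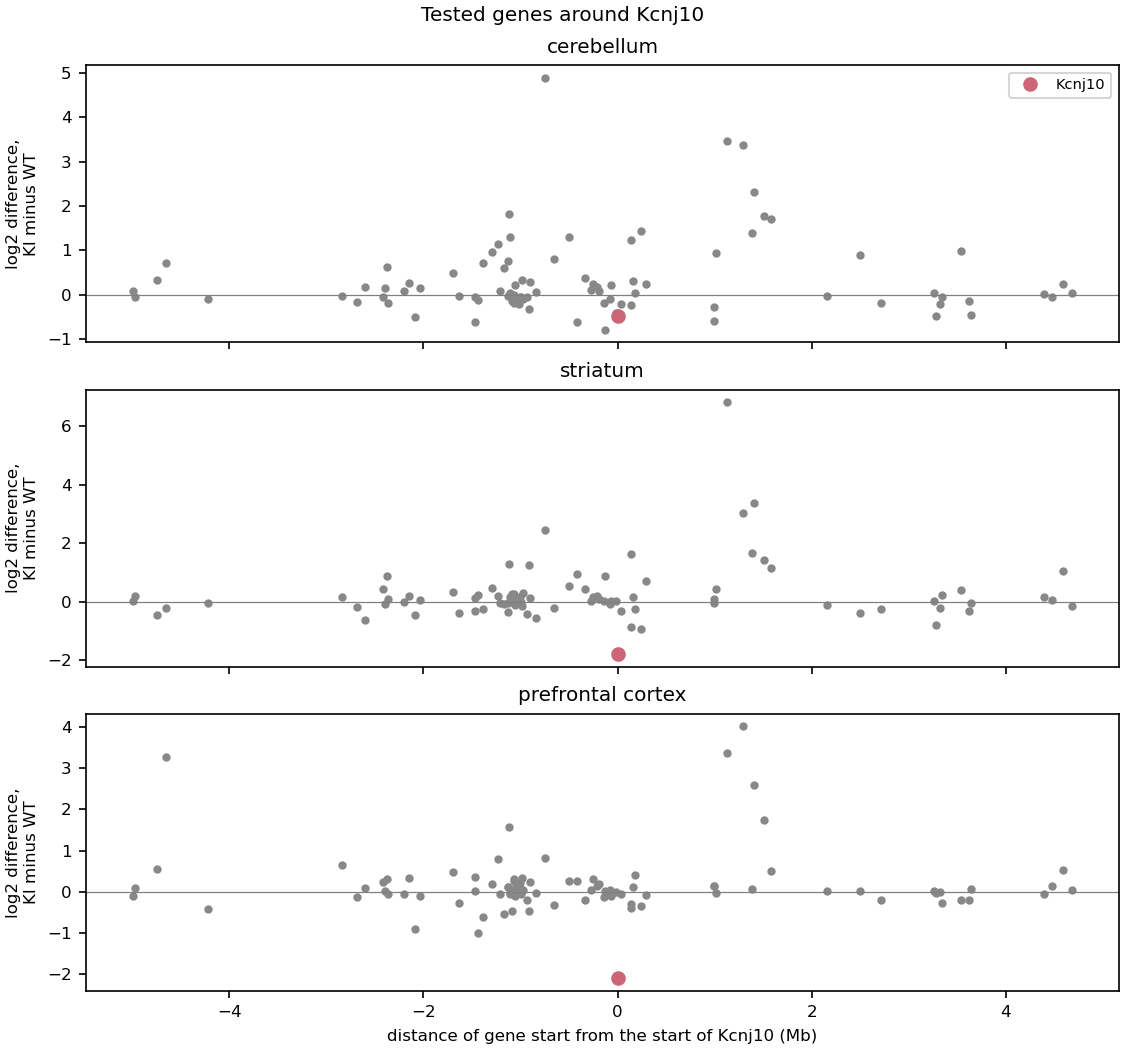
Log2 difference, KI minus WT, of the 89 tested genes within 5 Mb of the start of Kcnj10 (grey) and of Kcnj10 (red), against distance in Mb, in the 3 regions. In the striatum and prefrontal cortex, the regions whose values chose it, Kcnj10 is the lowest point, and most genes lie near 0.

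Co-variation within groups was described from deviations of each library from the mean of its own group of region and genotype, over 19 libraries. The points share library and depth, and no test was made. The 5 genes most like *Kcnj10* among 12084 were *Gstt1*, *Sord*, *Phf5a*, *Hmgb2* and *Nap1l4*, with r of 0.83, 0.80, 0.78, 0.77 and 0.77. Without KI cerebellum 4 these values were 0.74, 0.69, 0.54, 0.52 and 0.76, and none of these genes stayed among the 5 most like *Kcnj10*. Those were then *Fndc5*, *Epb41l3*, *Litaf*, *Mcam* and *Zfp651*, with r of 0.93, 0.89, 0.89, 0.89 and 0.88. The choice of the 5 thus rested on that library. The 8 other astrocyte genes had r with *Kcnj10* from -0.26 (*Gja1*) to 0.36 (*Glul*), and *Kcnj16* had 0.10.

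Among themselves the 8 genes formed pairs. Across their 28 pairs the median r was 0.25. The highest was that of *Gjb6* and *Glul*, 0.92, which was 0.71 without the 2 cerebellum libraries numbered 1. *Slc1a2* went with *Glul*, at 0.76, and with *Gjb6*, at 0.72. *Aqp4* went with *Gja1*, at 0.75, or 0.59 without WT prefrontal cortex 3, and against *Slc1a2*, at -0.64, or -0.45 without that library. For both *Gjb6* and *Glul* the library numbered 1 was the highest of its group in all 4 groups of the cerebellum and striatum. *Glul*, for example, was at 255 CPM in WT cerebellum 1 and 152 and 144 CPM in the other WT libraries, and at 293 CPM in KI cerebellum 1 and 189.7 CPM or less in the other KI libraries.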

How the data were processed

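Whole-tissue RNA of 3 brain regions was sequenced on an Illumina HiSeq1000 after full-length cDNA amplification. The authors deposited counts of reads per Ensembl gene, not normalized, and a signal table of the same counts divided by size factors. The submitters' processing notes name bcl2fastq 2.17.1.14, STAR 2.5.2b, HTSeq, DESeq2 1.10.1 and the build GRCm38.p3. The use of strand in counting is not given in the sources used here, so reads of a gene and an antisense partner cannot be told apart. Antisense genes overlap *Aqp4*, with 0 counts, and *Slc1a2*, with 358 counts over all libraries. *Glul* shares its span with a gene on the other strand and a miRNA, with 652 counts in all.

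Gene names, positions and exon lengths came from GENCODE M21 (GRCm38), which holds 40254 of the 41128 identifiers. Promoter sequences came from RefSeq (GRCm38.p6). Counts were fitted in R 4.3.3 with edgeR 4.0.16: filterByExpr on 6 groups, TMM scaling and one quasi-likelihood fit of all 19 libraries. Two-sided p-values were corrected over 16841 genes (Benjamini-Hochberg), with 0.05 as the threshold. The fit was tested on simulated data. CPM values use TMM library sizes, and log2 CPM values a prior count of 2. Depth ranged from 10639110 to 17431284 counts, and counts may include amplification duplicates, since no molecular identifiers are described. No pair of libraries of a group agreed within sampling noise (chi-square per degree of freedom of at least 4.95 over 21 pairs). Replicates are separate mice according to the series' design, and whether one mouse gave several regions is not stated. Deviations from group means of same-numbered striatum and prefrontal cortex libraries of a genotype were correlated in all 6 pairs (r from 0.23 to 0.37), against -0.25 to -0.076 in 12 differently numbered pairs, so the number was taken to pair these 2 regions. It did not pair the cerebellum with another region (2 of 12 pairs above 0.1).

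The genes and lists were chosen with earlier results of these data known. Beside the 9 genes, the text names genes of the other lists with an adjusted p under 0.05 (at most 5 per list). It also names the 2 astrocyte genes of highest level per kb, the genes next to *Kcnj10* and *Kcnj16*, and the genes called by edgeR within 5 Mb of *Kcnj10*. The 5 genes most like *Kcnj10* are named with and without KI cerebellum 4. Some genes of these lists entered the counts and are not reported here by name. Alternatives were DESeq2 1.42.0, limma 3.58.1 on log2 values of the deposited normalized counts, other scaling and filters, regions fitted alone, a replicate block, a sex term and each library left out. Likeness without 1 library, the chromosome window, the gap of single cerebellum libraries, the block over striatum and prefrontal cortex, and gene pairs without single libraries were chosen after seeing the data.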

Additional observations from a re-analysis of the deposited data

Results flagged for a closer look

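*Gjb6* was singled out because 1 of the 4 KI cerebellum libraries lay far from the rest: KI cerebellum 1 was at 285 CPM and the others at 129.9 to 137 CPM, a gap of 0.957 of the whole range. These 4 libraries were examined for 27 genes, and chance marks about 1 group in 20.

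*Cd68* and *Cx3cr1*, markers of microglia, were singled out because their KI libraries lay above all WT libraries in the cerebellum and under all WT libraries in the prefrontal cortex. *Cd68* was at 2.83 to 4.37 CPM in WT and 7.82 to 8.89 CPM in KI cerebellum, a log2 difference of 1.17, and at 16.1 to 19.3 CPM in WT and 13.8 to 15.9 CPM in KI prefrontal cortex, a difference of -0.29. The fall in the prefrontal cortex did not pass the test, at an adjusted p of 0.858 in edgeR. The difference between the regions was 1.46 (SE 0.204), with an adjusted p of 0.0116 in edgeR. The same values singled out the gene, so this p is no separate test of opposite changes. Groups did not overlap, in either direction, for 12.3% of all tested genes in cerebellum and 8.69% in prefrontal cortex. *Cx3cr1* was at 11.4 to 14.6 CPM in WT and 18.3 to 20.0 CPM in KI cerebellum, a log2 difference of 0.585, and at 63.6 to 78.5 CPM in WT and 56.6 to 62.6 CPM in KI prefrontal cortex, a difference of -0.23. Its fall in the prefrontal cortex did not pass the test, at an adjusted p of 0.893 in edgeR. Nor did its difference between the regions, 0.81 (SE 0.180), at an adjusted p of 0.220 in edgeR.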

How the results depend on the processing

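For 48 results, 727 values were recomputed under the alternatives: 665 kept their direction and side of the threshold or moved by less than the spread between libraries. The count of called genes other than *Kcnj10* stayed at 0 in all KI comparisons and in all differences between regions, under every alternative and with each library left out. Leaving out single libraries gave 6 of 8 between WT cerebellum and striatum in every fit, 5 to 6 between cerebellum and prefrontal cortex, and 2 to 4 between striatum and prefrontal cortex. The same exercise gave *Kcnj10* differences of -1.93 to -1.65 in the striatum, -2.36 to -1.88 in the prefrontal cortex and -0.68 to -0.23 in the cerebellum, where the adjusted p stayed between 0.625 and 0.931. Under the other alternatives, the sex term among them, *Kcnj10* differed by -1.81 to -1.63 in the striatum and -2.12 to -1.83 in the prefrontal cortex.

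Replicate numbers did not pair KI with WT libraries (9 same-numbered pairs, r from -0.25 to 0.17, 2 above 0.1). With the number as a block within regions *Kcnj10* differed by -1.80, -2.08 and -0.22 in the striatum, prefrontal cortex and cerebellum, and *Aldoc* in the cerebellum by -0.54 with an adjusted p of 0.0660. They did pair striatum with prefrontal cortex within a genotype. With a replicate block over these 2 regions 3 of 8 genes, and with a block over all 3 regions 5 of 8, in place of 2, differed between WT striatum and prefrontal cortex, and the paired fits changed no other count of the 8 genes by over 1.5 times. The block made *Kcnj9* in the prefrontal cortex 0.0099.

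Differences near 0 turned sign. With the sex term these were *Slc1a2* (0.0026), *Gjb6* (0.049) and *Kcnj9* (0.038) in the prefrontal cortex and *Glul* in the striatum (0.065). With at least 10 counts in every library *Slc1a3* in the cerebellum was -0.00039, and with limma *Kcnj9* in the prefrontal cortex was 0.0074. Leaving out single libraries, the ranges that crossed 0 were, in the striatum, *Kcnj16* -0.59 to 0.28, *Aqp4* -0.30 to 0.070, *Gja1* -0.14 to 0.035, *Glul* -0.12 to 0.075, *Atp1b2* -0.073 to 0.17 and *Kcnj9* -0.093 to 0.24. In the prefrontal cortex they were *Aqp4* -0.67 to 0.041, *Slc1a2* -0.13 to 0.083, *Gjb6* -0.16 to 0.14, *Kcnj9* -0.18 to 0.18 and *Pigm* -0.13 to 0.014. In the cerebellum they were *Slc1a3* -0.062 to 0.062, *Glul* -0.10 to 0.45 and *Atp1b2* -0.058 to 0.025. *Cx3cr1* in the cerebellum lost its call without any one of 6 of the 7 libraries and with regions fitted alone (adjusted p of 0.0534), and *Pcp2* lost it with limma (0.0975). DESeq2 called 336, 214 and 52 of all genes in the 3 regions (cerebellum, then striatum, then prefrontal cortex), where edgeR called 140, 98 and 18. With regions fitted alone the striatum and prefrontal cortex gave 46 and 0, with the block 72 and 9. With 3 or 4 libraries a group, changes of under about 0.3 log2 units could not be told from 0 for most of the 9 genes. For *Kcnj10*, *Kcnj16*, *Aqp4*, *Gjb6* and *Glul* the intervals were wider, and larger changes could be missed too. In the cerebellum the 95% interval was -0.23 to 0.19 for *Atp1b2*, the narrowest, and -0.23 to 1.16 for *Gjb6*, the widest.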
